A study of Mus musculus with 18 samples.

Results

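The genes for the proteins of the cytosolic ribosome were followed in liver RNA of NRF2 knockout (KO) and wild-type (WT) mice after diethylnitrosamine (DEN), a liver carcinogen. Members were the genes whose names carry the standard Rpl, Rps, Rplp or Rpsa symbols and whose counts summed to at least 100 over all libraries. The name pattern matched 81 of the 35275 genes in the table, and 77 of them met the count minimum: 45 of the large subunit and 32 of the small subunit. The members just inside the minimum were Rpl23a with 1948 counts and Rpl35 with 3015, and those outside it were Rpl24 with 60, Rpl3l with 30, Rpl39l with 4 and Rpl10l with 0.

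The 18 RNA sequencing libraries came from 3 KO and 3 WT samples at each of 3 times after DEN: day 2 (2D), week 4 (4W) and week 36 (36W). All animals were of a mixed B6;129P2 background and all were given DEN, so no group is untreated. NRF2 is the transcription factor encoded by Nfe2l2 that drives antioxidant and detoxification genes. The labels call the 2D material tumor and the 4W and 36W material tissue, and the extraction protocol, the same text for each library, mentions tumors. The titles of 2D libraries carry codes that begin with B and those of the later times codes that begin with A, with no meaning given, so that time, the animals' age and whatever the code marks cannot be told apart. Whether the replicates were separate animals is not given in the labels, and the p-values then cover only the spread between these samples, which may be technical.

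Each cytosolic ribosome has a small subunit, which reads the mRNA, and a large subunit, which joins amino acids, and its proteins are needed in nearly equal numbers. The mRNAs of these proteins typically start with a run of pyrimidines, the 5′ terminal oligopyrimidine motif, through which the kinase complex mTORC1 and the protein LARP1 control their translation. In liver they belong to the most abundant housekeeping mRNAs, and their output is tied to growth and to the synthesis of ribosomal RNA.

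The total gene count of a library lay between 15.3 M and 24.2 M (median 18.5 M). As a check of the labels, Nfe2l2 had a log2 fold change in KO over WT of −0.32 ± 0.17 (SE, edgeR adjusted p = 0.396) at 2D, −0.90 ± 0.10 (adjusted p = 0.00211) at 4W and −1.44 ± 0.13 (adjusted p = 0.0328) at 36W, and its target Nqo1 had −3.76 (edgeR adjusted p = 0.0227), −2.42 (adjusted p = 0.0029) and −4.09 ± 0.85 (adjusted p = 0.207, not called). The hepatocyte markers were the highest of the marker lists in every group. At 2D the third WT library stood apart: its summed stellate cell and fibroblast markers reached 6919 CPM (counts scaled to a library total of 1000000), against 958 to 1437 CPM in the 3 KO libraries and 943 and 1046 CPM in the other WT libraries, and its cholangiocyte markers summed to 559 CPM, against 115 to 148 CPM in KO and 114 and 125 CPM in the other WT libraries.

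The stretch around the RefSeq start of transcription is shown for 6 members so that the pyrimidine runs near the starts of the family can be seen. These are the 3 members with the most negative and the 3 with the least negative KO over WT log2 fold change at 2D among the members whose RefSeq start lies within 50 bases of the deposited 5′ end. Each runs from 60 bases before the start to 20 bases after it, 5′ to 3′ on the gene's strand, from the RefSeq table of build GRCm38.p6 (mm10), and capitals mark the longest run of C and T from 25 bases before to 20 bases after the start.
Rps28 (chr17:33824543-33824622, minus strand): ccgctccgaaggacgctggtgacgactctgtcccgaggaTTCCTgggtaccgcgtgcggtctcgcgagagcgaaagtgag
Rps23 (chr13:90923062-90923141, plus strand): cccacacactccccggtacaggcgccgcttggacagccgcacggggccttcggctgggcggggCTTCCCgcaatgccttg
Rplp0 (chr5:115559407-115559486, plus strand): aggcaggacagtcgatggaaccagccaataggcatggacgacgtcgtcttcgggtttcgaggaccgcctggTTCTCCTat
Rps26 (chr10:128626487-128626566, minus strand): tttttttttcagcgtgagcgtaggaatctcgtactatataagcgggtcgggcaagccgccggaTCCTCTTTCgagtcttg
Rpl22 (chr4:152325666-152325745, plus strand): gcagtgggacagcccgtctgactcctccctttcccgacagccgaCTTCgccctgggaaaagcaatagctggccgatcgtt
Rpl19 (chr11:98026650-98026729, plus strand): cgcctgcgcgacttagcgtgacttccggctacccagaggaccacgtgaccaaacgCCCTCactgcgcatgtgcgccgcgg

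The marked run was 5, 6 and 7 bases long in Rps28, Rps23 and Rplp0, and 9, 4 and 5 bases long in Rps26, Rpl22 and Rpl19. In Rps28, Rpl22 and Rpl19 it lay wholly before the annotated start. In Rpl22 a longer run of 14 bases lay just before the stretch searched, and in Rps26 a run of 10 bases opened the printed sequence. Of the 77 members 56 had a RefSeq window of 250 bases before to 50 bases after the start. In 41 of these the start lay within 50 bases of the deposited 5′ end, and in the others farther off, such as 7486 bases in Rpl13a. The counts below use all 56. A run of at least 8 pyrimidines within 25 bases of the start was present in 28 of these 56 windows (50%), against 19.1% of the windows of 17604 genes in the table. The letters CTTTCC, a short pyrimidine string, stood on either strand in 46.4% of the member windows and 26.2% of all windows, and on the gene's strand within 50 bases of the start in 28.6% and 4.46%. TTCCGG, the core bound by ETS family factors, was in 51.8% of member windows and 18.9% of all, on either strand. TGACNNNGC, the core of the antioxidant response element that NRF2 binds, was in 19.6% of member windows and 13.3% of all on either strand, in 7.14% and 6.83% on the gene's strand, and in 1.79% and 2.63% on the gene's strand within 50 bases of the start. AAGATGG, a core bound by YY1, was in 14.3% and 6.46% on either strand. Also searched on either strand were TATAAA (8.93% of member windows and 12.9% of all), CCAAT (32.1% and 38.5%) and CTTTTC (26.8% and 20.8%). On the gene's strand within 50 bases of the start these were TATAAA 7.14% and 3.92%, CCAAT 3.57% and 6.90%, and CTTTTC 14.3% and 3.18%. CTTTCC and TTCCGG can overlap in TTCC, and a match describes letters only.

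Levels within the family spanned a wide range. As TPM, a level scaled for gene length and to a library total of 1000000, averaged over the 18 libraries, the median member had 458 TPM, and 66 of 77 lay within 3-fold of it. The highest were Rplp1, an acidic protein of the large subunit stalk, at 1278 TPM, Rps12 at 1061 TPM, Rpl10, which joins the large subunit late in its assembly, at 1059 TPM, Rps2 at 1058 TPM and Rps26 at 959 TPM. The lowest were Rpl35 at 19.5 TPM, Rpl23a at 20.3 TPM, Rps15a at 47.2 TPM, Rps4l at 54.1 TPM and Rps20 at 87.8 TPM. The deposited length of Rps15a, 5130 bases, and of Rps20, 3706 bases, is far above the family's median of 930 bases, and a longer length gives a lower TPM. Ribosomal protein genes have many processed pseudogenes, so counts of single members are uncertain where reads could be shared.

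The balance between members was nearly constant. The large subunit took between 60.4% and 61.5% of the member counts in every library. Each member's share of the summed member counts had a median SD of 0.11 on the log2 scale over the 18 libraries, and only Rps4l (1.13) and Rps27l (0.40) exceeded 0.3. The plot of every member in every library shows most rows moving together.

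**Figure D1:**
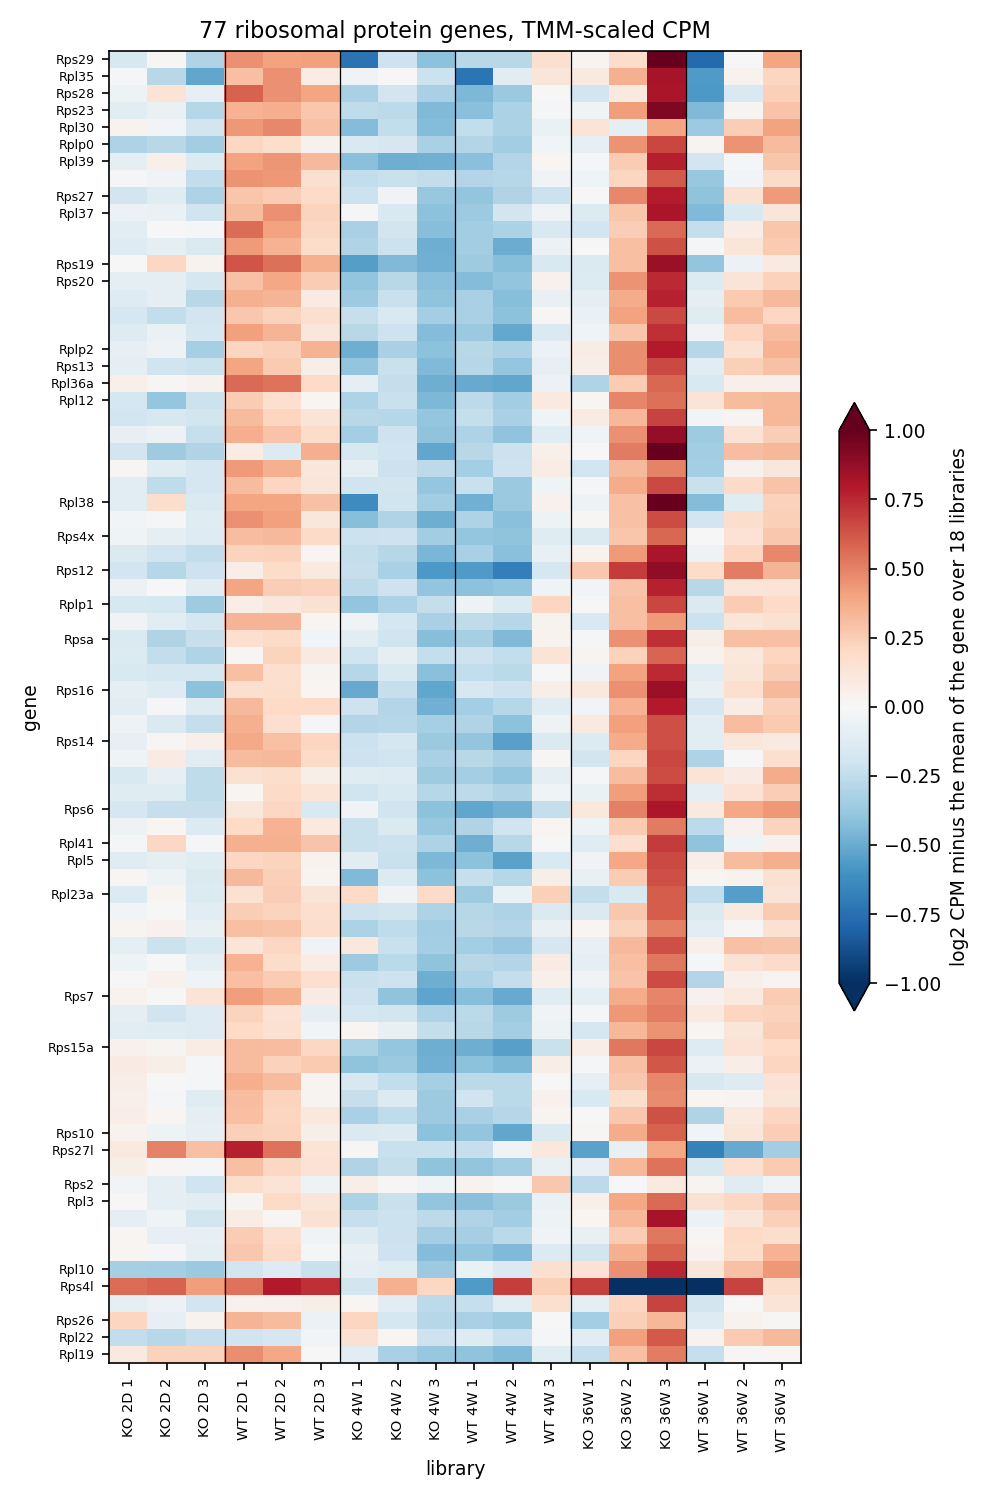
Level of each of the 77 members (rows, ordered by their KO over WT log2 fold change at 2D, most negative at the top, with names on the rows of members the text describes) in each of the 18 libraries (columns), as log2 of TMM-scaled CPM with 0.1 added minus the gene's mean over all libraries. Columns of one library share a colour for most rows, with Rps4l and Rps27l as exceptions, and the third KO library of 36W is the reddest column.

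As a share of all gene counts, the family was lower in KO than in WT at 2D, close at 4W, and higher on average but overlapping at 36W. At 2D the members took 1.62%, 1.72% and 1.67% of the counts in the 3 KO libraries, against 2.33%, 2.19% and 2.20% in the 3 WT libraries, and the groups did not overlap. At 4W the KO libraries had 1.28%, 1.48% and 1.25%, against 1.30%, 1.34% and 1.51% in WT, with overlap. At 36W the KO libraries had 1.54%, 2.06% and 2.41%, against 1.48%, 1.68% and 1.64% in WT, and the lowest KO library lay inside the WT range. The KO libraries of 36W had the widest spread, an SD of 0.439 percentage points, against 0.104 in WT. Counting error was small beside these gaps, with Wilson 95% binomial intervals such as 1.61% to 1.62% for the first KO library of 2D.

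**Figure D2:**
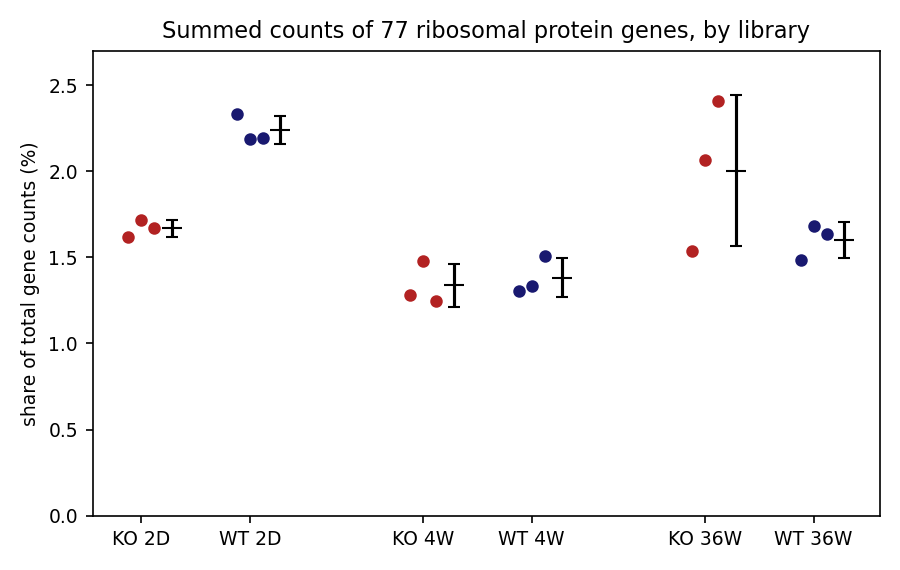
Share of total gene counts (%) taken by the 77 members in each library, with the mean and SD of the 3 libraries of each group beside the points. The KO libraries of 2D lie at 1.62% to 1.72%, below the WT libraries at 2.19% to 2.33%, while KO and WT overlap at 4W and 36W.

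The KO minus WT difference in share was −0.57 percentage points at 2D (exact two-sided permutation test, p = 0.1, the smallest that 3 against 3 libraries allow; 0.2 after Benjamini-Hochberg adjustment over the 10 tests made on this share). It was −0.046 points at 4W (exact permutation p = 0.5), and −0.072 points on average over the 3 times (exact permutation p = 0.614). At 36W it was 0.40 points (exact permutation p = 0.3), and 0.198 points without the third KO library and 0.633 points without the first. The KO effect at 36W minus the KO effect at 2D was 0.971 points (exact permutation within time strata, p = 0.015, adjusted p = 0.05). The corresponding values were 0.524 points for 4W minus 2D (exact permutation p = 0.08) and 0.446 points for 36W minus 4W (exact permutation p = 0.19). These tests of KO effect differences shuffle KO and WT labels within each time. Their null is no KO effect at either time, so an effect at a single time can give a low p. Other abundant mRNAs enter the same denominator: albumin (Alb) took 8.58% to 9.36% of counts in KO and 6.90% to 7.44% in WT at 2D. With the 20 most abundant genes, Alb among them, left out of the denominator, the difference was −0.636 points at 2D and 0.674 points at 36W, and it turned to 0.0251 points at 4W and 0.0211 points over the 3 times. With TMM-effective library sizes as the denominator the differences were smaller, at −0.359 points at 2D and 0.302 points at 36W. The KO effect at 36W minus that at 2D was then 0.661 points (exact permutation p = 0.045).

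Gene by gene at 2D, no member passed the test, while all 77 pointed the same way. With edgeR's quasi-likelihood test, 0 of 77 members were called at an adjusted p under 0.05, where 0.165% of the 13913 genes tested were called, and 57 members had an unadjusted p under 0.05, all lower in KO, where 16.1% of all genes had one in either direction. The log2 fold changes of KO over WT ran from −0.60 to −0.14 with a median of −0.35, against a median of −0.04 over all genes. In 66 of 77 members the KO libraries all lay below the WT libraries, against 8.83% of all genes tested. The spread between members was narrow, an SD of 0.11 on the log2 scale against 0.52 over all genes. Members share libraries and scaling and are not independent, so these counts describe the family and are no test of it.

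Rps29, a zinc-binding protein of the small subunit, had the largest difference: 46.0, 51.7 and 41.6 CPM in KO, against 70.3, 67.7 and 68.1 CPM in WT, a log2 fold change of −0.60 ± 0.11 (SE, edgeR adjusted p = 0.0913). No KO library reached the lowest WT library. Rps28, also of the small subunit, had 49.9, 57.0 and 48.8 CPM in KO, against 77.9, 70.9 and 68.0 CPM in WT, with no overlap (log2 fold change −0.51 ± 0.11, edgeR adjusted p = 0.109). Rps23, which lies at the decoding centre, had 132, 136 and 117 CPM in KO, against 181, 182 and 171 CPM in WT, with no overlap (−0.51 ± 0.10, edgeR adjusted p = 0.103). Rpl30 had 128, 122 and 110 CPM in KO, against 168, 173 and 152 CPM in WT, again apart (−0.49 ± 0.11). Rpl35 had 8.64, 7.17 and 6.06 CPM in KO, against 10.8, 12.1 and 9.22 CPM in WT (−0.58 ± 0.19), the lowest level of the 5. Rplp0, the base of the ribosomal stalk and a common housekeeping reference, averaged 474 ± 11.7 CPM in KO and 652 ± 38.5 CPM in WT (SD, n = 3 each), a log2 fold change of −0.49.

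At the other end Rpl19 had 339, 373 and 373 CPM in KO, against 438, 414 and 317 CPM in WT, and the groups overlapped through the third WT library. Its log2 fold change was −0.14 ± 0.15. Rpl22 had 73.9, 72.6 and 74.9 CPM in KO, against 76.6, 78.1 and 86.3 CPM in WT, a small gap without overlap. The median log2 fold change was −0.35 for the large subunit and −0.35 for the small subunit.

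Whether single members pass at 2D depended on the tool and on 1 library. limma-voom called 0 of 77. The share of all genes it called is not given here or below, nor that of DESeq2 where it called 0, so those counts of 0 are not read as results about the members. DESeq2 called 37 lower, where it called 2.35% of all genes lower. Without the third WT library, the one with the high stellate markers, edgeR called 38 lower, where it called 6.42% of all genes lower. The sets share 32 members, and 43 were called by either. The median log2 fold change was −0.37 without that library, and between −0.37 and −0.31 over the 6 single-library omissions. Summed markers of 5 lists also lay apart between KO and WT at 2D. They were higher in KO for hepatocytes (108388 to 119491 CPM, against 97678 to 99530 in WT), B and plasma cells (26.1 to 31.2 CPM, against 9.75 to 21.7) and T and NK cells (4.30 to 6.57 CPM, against 3.16 to 4.19). They were lower in KO for sinusoidal endothelium (195 to 312 CPM, against 342 to 390 in WT) and neutrophils (10.6 to 21.9 CPM, against 25.6 to 28.2). Most of the hepatocyte sum is Alb, which at 2D took a mean of 9.06% of counts in KO and 7.15% in WT. The other hepatocyte markers were not summed apart, so the higher sum in KO is no statement about them. The part of other cell types in the 2D difference was not tested, and fewer cells of a type and less RNA per cell cannot be told apart in bulk tissue. Among abundant genes outside the family, those of at most 1000 bases had a median log2 fold change of −0.13 (n = 96) and those above 3000 bases one of 0.08 (n = 1171), and the part of transcript length in the result was not tested.

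**Figure D3:**
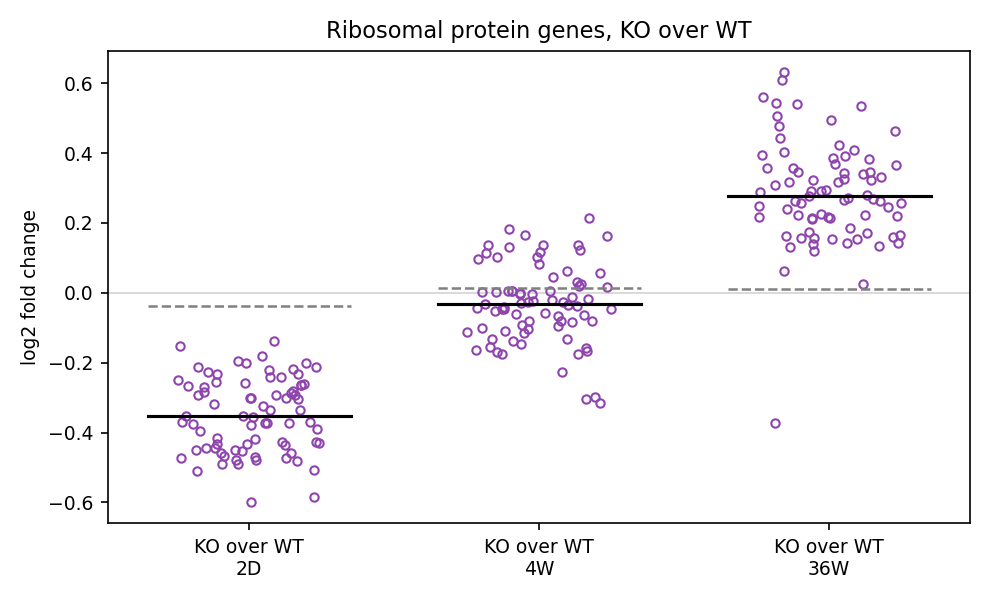
Log2 fold change of KO over WT for the 77 members (open circles, none called by edgeR) at each time, with the members' median as a solid line and the median of all genes tested as a dashed line. The members lie below the all-gene median at 2D (median −0.35), around it at 4W (−0.03) and above it at 36W (0.28).

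At 4W the KO over WT values of the members lay on both sides of 0. No member was called by edgeR, where 6.08% of 13394 genes were, 2 had an unadjusted p under 0.05, where 22.1% of genes did, and DESeq2 and limma-voom called 0. The median log2 fold change was −0.03, with 28 members positive and 49 negative, and in 4 members all KO libraries lay below all WT libraries, against 15.9% of genes. Rplp1 had 232, 245 and 258 CPM in KO, against 294, 277 and 353 CPM in WT, without overlap (log2 fold change −0.32 ± 0.11, edgeR adjusted p = 0.139). Rps16 likewise lay apart, with 128, 155 and 127 CPM in KO and 163, 158 and 190 CPM in WT (−0.30 ± 0.12). Rps6, the small subunit protein phosphorylated by S6 kinase, had 310, 276 and 238 CPM in KO, against 221, 227 and 269 CPM in WT, with overlap (0.21 ± 0.12). Other members named by size were Rps29 (−0.30), Rpl39 (−0.23) and Rplp2 (−0.18) on the lower side and Rpl23a (0.18), Rps26 (0.16) and Rps10 (0.14) on the higher side, none of them called.

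At 36W 76 of 77 members had a positive log2 fold change of KO over WT, and none passed the test. edgeR called 0 of 77, where 0.037% of 13516 genes were called, 0 had an unadjusted p under 0.05, where 12% of genes did, and DESeq2 and limma-voom called 0. The median was 0.28, against 0.01 over all genes, and in no member did the KO libraries all lie above the WT libraries, against 7.98% of genes. Rpl38 had 56.1, 71.3 and 122 CPM in KO, against 42.9, 53.4 and 68.1 CPM in WT (log2 fold change 0.63 ± 0.30, edgeR adjusted p = 0.456). Rps29 had 52.2, 58.2 and 111 CPM in KO, against 29.9, 51.1 and 67.5 CPM in WT (0.61 ± 0.37). In both genes the third KO library was the highest. Of the other two KO libraries, the second lay just above the WT range for Rpl38 and both lay within it for Rps29. Rpl35 (0.56), Rpl37 (0.54) and Rps23 (0.54) followed. The median was 0.10 without the third KO library and 0.41 without the first, the lowest and highest of the 6 single-library omissions. Summed cholangiocyte markers, with 5 or 6 of 6 detected in each library, reached 711 to 1094 CPM in KO at 36W, against 89.1 to 510 CPM in WT, without overlap. Summed T and NK cell markers were 36.2 CPM in the third KO library, 8.29 and 8.50 CPM in the other KO libraries and 2.62 to 10.9 CPM in WT. Among abundant genes outside the family, those of at most 1000 bases had a median of 0.13 and those above 3000 bases one of −0.16. The part of these markers and of length in the 36W values was not tested.

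Rps29, Rpl35 and Rps23 were among the 5 most negative members at 2D and among the 5 most positive at 36W. In the fit of all 18 libraries, the KO effect at 36W minus the KO effect at 2D had a median of 0.60 over the members, against 0.03 over all genes, and was positive for 76 of 77. edgeR called 0 of 77, where 3.04% of 14877 genes were called, and 60 had an unadjusted p under 0.05, where 20.5% of genes did. The medians of short and long abundant genes outside the family, split as above, were 0.17 and −0.33 for this difference, and the part of length was not tested. Rps19 came nearest, with a difference of 0.96 ± 0.27 (edgeR adjusted p = 0.059). limma-voom called 0, and DESeq2 called 27 higher, where it called 2.46% of all genes higher. Without the first KO library of 36W edgeR called 44 higher, where it called 1.36% of all genes higher, and it called 10 without the third WT library of 36W and 2 without the third WT library of 2D, where it called 1.03% and 1.43% of genes higher. The differences 4W minus 2D and 36W minus 4W also had 0 members called by edgeR, where 1.34% and 0.565% of genes were called, and DESeq2 and limma-voom called 0 in both. At an unadjusted p under 0.05 stood 6 and 8 of 77 members, against 16.4% and 16% of genes. The medians were 0.30 and 0.30. That of 36W minus 4W was 0.10 without the third KO library of 36W, 0.20 without the first WT library of 36W, 0.21 without the third WT library of 4W and 0.45 without the first KO library of 36W.

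In both genotypes the mean share of the family was lowest at 4W. Averaged over genotypes, the share differed by −0.59 percentage points at 4W minus 2D (exact permutation within genotype, p = 0.005, the smallest possible, adjusted p = 0.05). It differed by 0.44 points at 36W minus 4W (exact permutation p = 0.01, adjusted p = 0.05). These adjusted values, like that of the 36W minus 2D KO effect, stand at the threshold of 0.05 and not under it. The 36W minus 2D difference was −0.15 points (exact permutation p = 0.445), from −0.253 without the third KO library of 36W to −0.0350 without the first, and it turned to 0.0660 points without the 20 most abundant genes and 0.213 points with TMM-effective library sizes. By group the mean shares at 2D, 4W and 36W were 1.67%, 1.34% and 2.00% in KO and 2.24%, 1.38% and 1.60% in WT.

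In WT livers 47 of 77 members were lower at 4W than at 2D, where 18.6% of 14877 genes were lower. The median log2 fold change was −0.47. Rps15a fell by 0.69 ± 0.13 on the log2 scale (SE, edgeR adjusted p = 9.8e-04), Rps19, whose human gene is mutated in Diamond-Blackfan anaemia, by 0.82 ± 0.19, Rpl36a by 0.79 ± 0.18, Rps7 by 0.63 ± 0.15 and Rps14 by 0.65 ± 0.16. Rps19 had 105, 100 and 121 CPM at 4W, against 209, 198 and 173 CPM at 2D, without overlap. The count of lower members was 24 and 25 without the first or second WT library of 2D, where 16.9% and 16.1% of genes were lower. It was 16 and 15 without the first or second WT library of 4W, where 13.3% and 12.9% were. Summed cell cycle markers were also lower at 4W than at 2D, at 62.7 to 131 CPM against 270 to 349 CPM in WT and 14.3 to 84.7 CPM against 256 to 344 CPM in KO, and their part was not tested. In KO livers 2 members were lower, where 10.8% of genes were: Rps15a (−0.40 ± 0.13, edgeR adjusted p = 0.0384) and Rps19 (−0.53 ± 0.19, edgeR adjusted p = 0.0497). With any 1 of the 6 libraries left out 0 members were called, and the median in KO was −0.14. The difference between the changes in KO and WT is the KO effect at 4W minus that at 2D, for which 0 members were called.

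At 36W 64 of 77 members were higher than at 4W in KO livers, where 14.5% of genes were higher, with a median log2 fold change of 0.60. Rps12 had 286, 387 and 440 CPM at 36W, against 202, 190 and 159 CPM at 4W, without overlap (1.00 ± 0.16, edgeR adjusted p = 2.2e-04). Rps16 (0.90 ± 0.17), Rplp2 (0.86 ± 0.17), Rps15a (0.82 ± 0.13) and Rps13 (0.75 ± 0.15) rose with it. Without the third KO library of 36W, the highest of the series at 2.41% of counts, 32 members were called, where 10.4% of genes were. Summed hepatocyte markers were higher at 36W than at 4W without overlap, at 174640 to 194023 CPM against 107233 to 127913 CPM in KO and 149332 to 202235 CPM against 86957 to 113031 CPM in WT, and cholangiocyte markers in KO were at 711 to 1094 CPM against 126 to 151 CPM. The part of these markers was not tested, and most of the hepatocyte sum is Alb. In WT 16 members were higher at 36W than at 4W, where 11.9% of genes were, with a median of 0.31: Rps12 rose by 0.81 ± 0.16, Rps6 by 0.72 ± 0.16, Rpl5 by 0.61 ± 0.15, Rpl3 by 0.50 ± 0.13 and Rps15a by 0.49 ± 0.13. That count was 26 without the first WT library of 36W, where 12.3% of genes were higher, 5 without the second (8.9% of genes) and 4 without the third (10.1%). It was 2 and 3 without the first or second WT library of 4W, where 8.2% and 8.21% of genes were higher, so that in these 4 omissions the members' share lay under that of all genes.

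**Figure D4:**
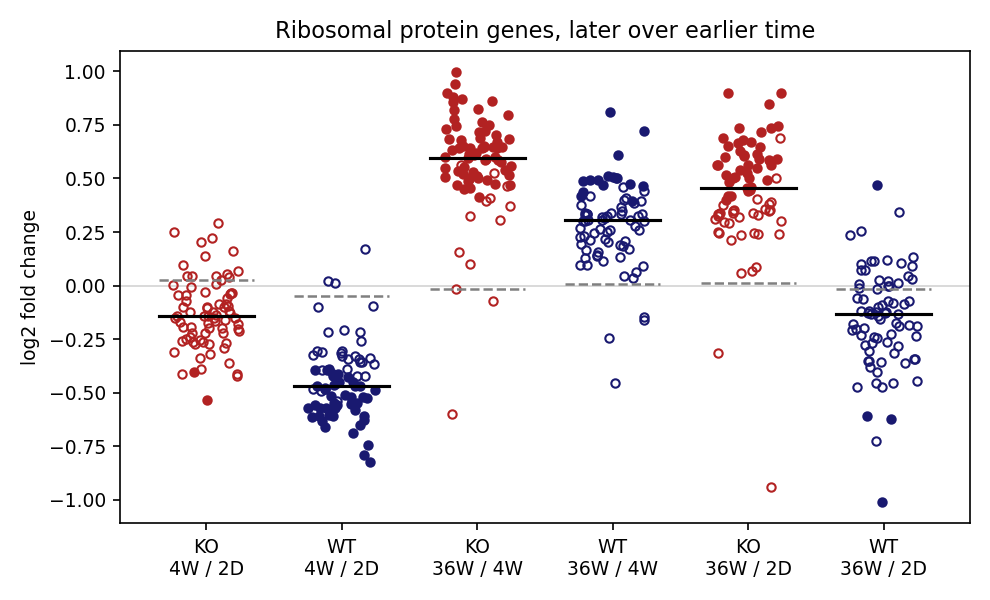
Log2 fold change of the later over the earlier time for the 77 members in KO (red) and WT (dark), filled where edgeR called the member and open where it did not, with the members' median as a solid line and the all-gene median as a dashed line. At 4W over 2D the members lie lower in WT (median −0.47) than in KO (−0.14), and at 36W over 4W higher in KO (0.60) than in WT (0.31).

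Set against 2D, 41 of 77 members were higher at 36W in KO, where 17.8% of genes were higher, with a median of 0.46. Rpl10 had 526, 653 and 804 CPM at 36W, against 378, 376 and 367 CPM at 2D, without overlap (0.85 ± 0.14, edgeR adjusted p = 3.0e-04). Rps12 (0.90 ± 0.16), Rps6 (0.73 ± 0.16), Rps16 (0.73 ± 0.16) and Rpl12 (0.65 ± 0.14) were also higher. The count was 67 without the first KO library of 36W, 14 without the third, and 27 and 22 without the second or the third KO library of 2D, where 16.2%, 13.8%, 13.7% and 13% of genes were higher. In WT 1 member was higher, Rpl10 (0.47 ± 0.14, edgeR adjusted p = 0.0159), where 20.7% of genes were higher, and 3 were lower, where 17.1% were: Rps27l, Rps19 and Rps28. The scaling matters here. With library size alone in place of TMM, 17 members were higher and 1 lower in KO, where 11.7% of genes were higher and 22.9% lower, and the medians were 0.26 for the members and −0.18 for all genes. In WT 59 members were lower and 0 higher, where 37.7% of genes were lower, and the medians were −0.53 for the members and −0.40 for all genes.

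Rps27l and Rps4l departed from the rest. Rps27l is a paralog of Rps27 that p53 can induce. Its length-scaled level in KO was 477 to 673 TPM at 2D, 355 to 376 TPM at 4W and 286 to 492 TPM at 36W, and in WT 585 to 850 TPM, 353 to 419 TPM and 256 to 278 TPM. In WT it fell by 1.01 ± 0.20 on the log2 scale at 36W relative to 2D (edgeR adjusted p = 0.001). Relative to the summed members it was lower at 36W than at 2D in both genotypes, by 0.79 ± 0.15 in KO (edgeR adjusted p = 8.3e-04) and 0.91 ± 0.15 in WT (edgeR adjusted p = 2.7e-04), as log2 values. As a percentage of Rps27 per length it was 67.3 to 84.8 in KO and 53.3 to 77.9 in WT at 2D, and 37.6 to 41.7 in KO and 32.4 to 45.7 in WT at 36W.

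Rps4l, a paralog of the X-linked Rps4x, differed between libraries of 1 group more than between groups. At 36W it had 33.2, 9.35 and 3.38 CPM in KO, against 4.46, 33.1 and 23.3 CPM in WT, so that both groups held a high and a low library. At 2D it was even, with 30.5, 31.2 and 27.6 CPM in KO and 30.2, 35.9 and 34.3 CPM in WT. It was the 1 member with a negative KO over WT value at 36W, −0.37 ± 0.88, which turned to 0.10 and 0.17 without the third KO or the second WT library. Rps4x in the same 36W libraries ran from 295 to 486 CPM in KO and from 324 to 392 CPM in WT.

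**Figure D5:**
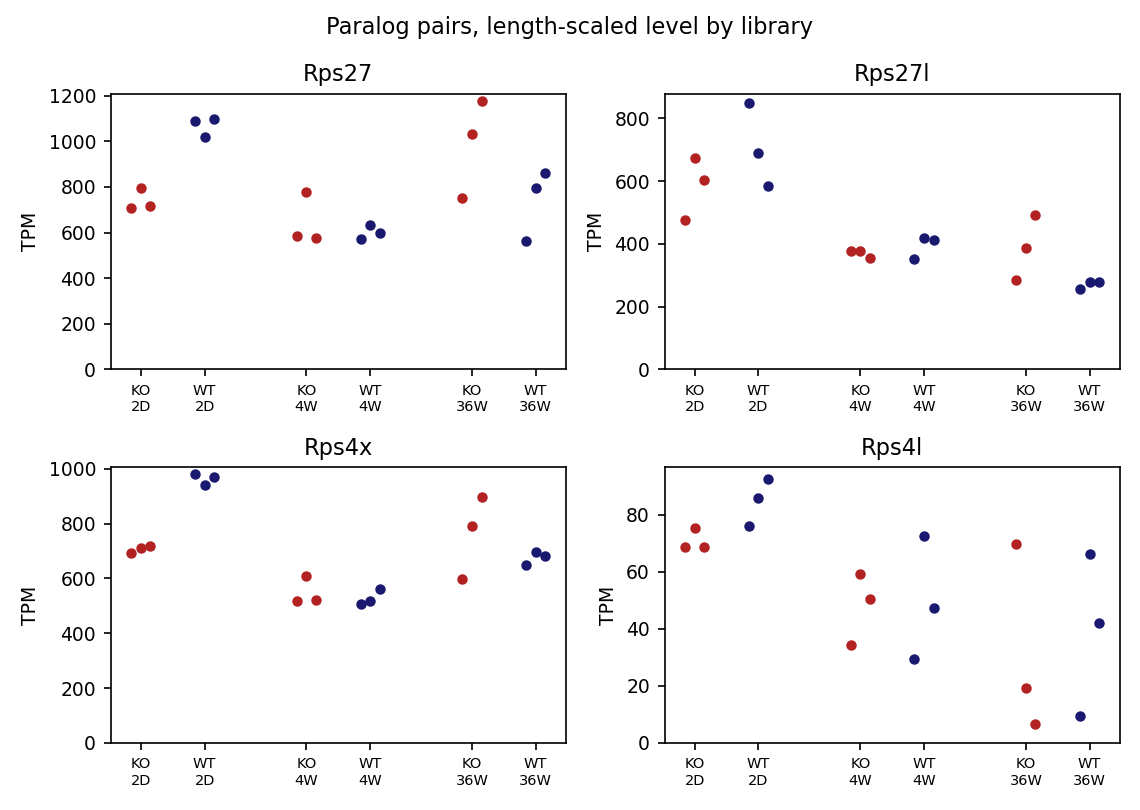
Length-scaled level (TPM) of Rps27, Rps27l, Rps4x and Rps4l in each library (points, 3 per group, KO red and WT dark), each panel on its own axis from 0. Rps27l is lower at 36W than at 2D in WT without overlap, and Rps4l spans 6.47 to 69.7 TPM in KO and 9.23 to 66.2 TPM in WT at 36W.

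With the members' own sum as the library size, a value states a change relative to the other members. On that scale 0 members were called for KO against WT at any of the 3 times. Calls on this scale are not set beside the share of all genes called, and describe members against the family only. Between times Rps12 and Rpl10 were higher and Rpl19 and Rps26 lower at 36W than at 2D in KO, beside Rps27l. In WT Rpl10, Rpl22 and Rps6 were higher and Rps19, Rps28, Rpl37, Rpl41 and Rpl36a lower at 36W than at 2D, beside Rps27l. Rps2 was lower relative to the family at 36W than at 4W in both genotypes, by 0.62 ± 0.14 in KO and 0.45 ± 0.14 in WT on the log2 scale.

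Lists of genes that work with these proteins had medians nearer 0 at 2D. In KO over WT at 2D, 0 genes were called by edgeR among 31 tested for ribosome biogenesis (median log2 fold change −0.10), 30 translation initiation factors (−0.06), 15 elongation and termination factors (−0.07), 18 genes of mTORC1 control (−0.03) and 76 mitochondrial ribosomal protein genes (−0.03). Only 0.165% of all genes tested were called at 2D, so these counts of 0 are not read as results about the lists. The list of ribosomal protein genes outside the name pattern, which also holds the binding protein gene Rps19bp1, had a median of −0.33 over 8 tested, with 6 negative and 2 positive. Fau was at −0.35 and Rps3a1 at −0.31, both small subunit proteins. Rpl36al was at −0.06, Rpl7l1 at 0.02 and Rps19bp1 at 0.03. Rack1, present under its older symbol Gnb2l1, was not tested with this list. At 36W no gene of these lists was called, where 0.037% of all genes were. At 4W 4 were called, where 6.08% of all genes were, all 4 lower in KO: Nolc1, a nucleolar assembly factor (−0.93), the ribosome rescue factor Pelo (−0.91), Mrps36 (−0.90) and the termination factor Gspt1 (−0.37). At 36W relative to 4W, of 76 mitochondrial ribosomal protein genes 5 were higher and 20 lower in KO, where 14.5% of all genes were higher and 15.3% lower, and 0 were higher and 28 lower in WT, where 11.9% were higher and 9.13% lower.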

How the data were processed

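The deposited values are whole-number counts per gene, with 1 column for each of 18 libraries and no normalisation by the authors. Per the submitters' processing notes the tools were STAR 2.5, HTSeq and DESeq2 and the build mm10. Their roles, and the strand of the libraries, are not given in the sources used here. Members and gene lists were chosen with earlier results of these data known. KO was compared with WT within each time (6 libraries), and times and KO effect differences in 1 fit of 18 libraries, by the quasi-likelihood F test of edgeR 4.0.16, after TMM scaling and filterByExpr, with Benjamini-Hochberg adjustment over all genes tested and a threshold of 0.05. All 77 members passed the filter in every comparison. CPM values of single genes use TMM factors of all 18 libraries. Summed marker CPM use the library totals without TMM factors, so they are not on the same scale. TPM uses the deposited gene lengths. Shares were tested by exact two-sided permutation over libraries (scipy). Named members were the 5 largest and 5 smallest KO over WT values per time, up to 5 called members per direction in other comparisons, the 5 highest and lowest levels, and paralogs; Rplp0 and Rpl22 were added for the sequences, and others singled out were chosen after their values were seen. Alternatives were other scalings, DESeq2 1.42.0, limma-voom (limma 3.58.1), other filters, a replicate block, the fit of all 18 libraries, and leaving out each library; the split by gene length was added after seeing the data. The fits were tested on simulated data. A table date error changed 27 gene names, none of them members. One result picked by the naming rule is not reported here. Intervals cover counting error only.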

Additional observations from a re-analysis of the deposited data

Results flagged for a closer look

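KO minus WT in the share of total counts was 0.971 percentage points higher at 36W than at 2D (exact permutation within time strata, p = 0.015, adjusted p = 0.05 over 10 tests). The null of this test is no KO effect at either time. A KO effect at a single time can give such a p, so it does not test whether the effects differed between times. At 2D the 3 KO libraries lay below the 3 WT libraries, and at 36W the first KO library, at 1.54%, lay inside the WT range of 1.48% to 1.68% while the other two lay above it. Gene by gene edgeR called 0 of 77 members for this difference.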

How the results depend on the processing

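Of the alternative values of single members and family medians, 1194 were classed as unchanged and 14 as moved, a count that does not separate the medians. For a single member, unchanged means the same direction and side of the threshold. Among single members 40 values lost a call, 17 gained one and 23 turned sign. The median of the family kept its sign under DESeq2 size factors, library size alone, DESeq2, limma-voom and both filters in each comparison. It turned positive at 4W in KO over WT without the third KO library (0.01) or the third WT library (0.06), and slightly negative with the member sum as library size for 36W over 2D in KO (−0.01) and 36W over 4W in WT (−0.02). The causes of the shifts below were not tested.

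DESeq2 called 37 members lower for KO over WT at 2D, 27 higher for the 36W minus 2D difference of the KO effect, 6 lower for 4W over 2D in KO and 7 lower for 36W over 2D in WT. Library size alone also shifts the median of all genes, to −0.18 and −0.33 for 4W over 2D in KO and WT and to −0.18 and −0.40 for 36W over 2D. It gave 17 higher for the 36W minus 2D difference (1.11% of all genes), 17 lower for 4W over 2D in KO (18.3%), 17 higher and 1 lower for 36W over 2D in KO (11.7% and 22.9%), 71 lower for 4W over 2D in WT (32.4%), 5 higher and 1 lower for 36W over 4W in WT (8.55% and 11.7%), and 0 higher and 59 lower for 36W over 2D in WT (37.7% lower). DESeq2 size factors in edgeR gave 6 lower for 36W over 2D in WT. With no filter on low counts 6 were higher for 36W over 4W in WT, and when genes had to reach a CPM of 1 in at least 3 libraries, 4 were lower for 4W over 2D in KO and 5 for 36W over 2D in WT. All-gene shares under DESeq2 size factors, these filters and the last 2 DESeq2 counts are not given here. In the main fit 10.8% of genes were lower for 4W over 2D in KO, 17.1% lower for 36W over 2D in WT and 11.9% higher for 36W over 4W in WT. These small counts are not read as results about the family.

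The member sum as library size, whose calls are not set here beside the share of all genes, removes what the family shares by construction. It gave 1 higher and 1 lower for 4W over 2D in KO, 2 higher and 4 lower for 36W over 4W in KO, 2 higher and 3 lower for 36W over 2D in KO, 4 higher and 3 lower for 4W over 2D in WT, 2 higher and 2 lower for 36W over 4W in WT, and 3 higher and 6 lower for 36W over 2D in WT. On that scale the KO over WT log2 fold change turned sign at 2D for Rpl10 (0.13), Rpl22 (0.17), Rpl3 (0.10), Rpl7 (0.0708), Rps27l (0.11) and Rps4l (0.12). It did so at 36W for Rpl10 (−0.0349), Rpl22 (−0.10), Rpl3 (−0.0903), Rpl36a (−0.00813), Rpl7 (−0.12) and Rps4x (−0.10), and at 4W for Rpl3 (0.0124). Rps4l at 4W was 0.0258 with limma-voom.

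Same-numbered KO and WT libraries correlated in their deviations by 0.118, −0.00231 and 0.304 at 2D, 0.19, 0.12 and 0.08 at 4W, and 0.22, −0.14 and 0.08 at 36W, so the numbers were not taken to pair samples. A replicate block gave 11 higher for the 36W minus 2D difference, 4 lower for 4W over 2D in KO, and 2 higher and 12 lower for 36W over 2D in WT, and Rps4l at 4W was then 0.0107. All-gene shares with the block are not given here. In the main fit 3.04% of genes were called in either direction for that difference, 10.8% lower for 4W over 2D in KO, and 20.7% higher and 17.1% lower for 36W over 2D in WT.

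Without the 20 most abundant genes in the denominator, the share differences turned to 0.0251 percentage points for KO minus WT at 4W, 0.0211 over the 3 times and 0.0660 for 36W minus 2D, and the KO effect at 4W minus 2D was 0.661. With the TMM-effective library size, 36W minus 2D was 0.213, and KO minus WT shrank to −0.359 at 2D and 0.302 at 36W.

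Leaving out each library in turn gave these lowest and highest counts. For KO over WT at 2D 0 to 38 members were lower, and for the 36W minus 2D difference 0 to 44 were higher. For 4W over 2D 0 to 0 were lower in KO and 15 to 48 in WT. For 36W over 4W 32 to 71 were higher and 0 to 1 lower in KO, and 2 to 26 were higher in WT. For 36W over 2D 14 to 67 were higher and 0 to 1 lower in KO, and 0 to 1 were higher and 1 to 5 lower in WT. The share of all genes called in the same direction was 6.42% at the count of 38 and 1.36% at 44. It was 12.9% at 15, 10.4% at 32, 8.2% at 2, 12.3% at 26, 13.8% at 14 and 16.2% at 67. At the other extremes, 48 and 71 among them, that share is not given here. Those counts are not read as results about the family. The share difference ran from −0.118 to 0.0180 points for KO minus WT at 4W, from 0.198 to 0.633 at 36W, from −0.140 to 0.0056 over the 3 times, from −0.253 to −0.0350 for 36W minus 2D, and from 0.244 to 0.679 for the 36W minus 4W difference of the KO effect. Among single KO over WT values, the lowest and highest at 36W were −0.0135 and 0.315 for Rpl22, −0.0304 and 0.307 for Rps4x and −1.66 and 0.170 for Rps4l, and at 4W −0.0860 and 0.0885 for Rpl3 and −0.331 and 0.282 for Rps4l.

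With 3 libraries a group, an exact permutation test of 1 time cannot go below p = 0.1.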
